A study of Mus musculus with 6 samples.

Results

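Alveolar macrophages, the resident phagocytes of the air spaces, were examined in single-cell RNA libraries from the right lungs of 6 mice. They were defined as barcodes with at least 10 unique molecular identifiers (UMIs, each standing for 1 captured RNA molecule) of Chil3, at least 1 of Plet1 and at least 1 of Atp6v0d2, and none of the B cell gene Cd79a or the T cell gene Cd3e. Barcodes entered this selection only with at least 1000 UMIs from at least 500 genes and at most 10% mitochondrial UMIs. In all, 2989 of 25704 such barcodes were alveolar macrophages.

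All 6 mice were males of 12 weeks that carried hCTLA4, a knock-in of human CTLA4 sequence on a C57BL/6 background, so that the mouse protein holds the part that the human antibody ipilimumab binds. All 6 received bleomycin, a DNA-damaging drug that scars the lung, in 2 oropharyngeal doses of 1.25 U/kg given 2 weeks apart. From day 21 after the second dose, 3 mice received ipilimumab (labelled anti-CLTA4 mAb) and 3 the isotype control IgG1, at 5 mg/kg intraperitoneally 2 times a week for 4.5 weeks. Each mouse gave 1 Chromium 3′ library. No mouse without bleomycin or with mouse CTLA4 alone was in the comparison, so nothing here separates the effect of injury or of the knock-in.

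Alveolar macrophages settle in the air spaces around birth, maintain themselves by division and depend on GM-CSF, TGF-β and the nuclear receptor PPAR-γ. They clear surfactant lipids and inhaled particles, and after injury macrophages recruited from blood monocytes can take up the same niche and share many of their genes. CTLA4, the target of ipilimumab, is a T cell protein that competes for CD80 and CD86 on antigen-presenting cells, and macrophages also carry the Fc receptors that bind the constant part of an antibody. The labels and the study's methods ask how the lung changed under CTLA4 blockade. Here that question was put to the alveolar macrophages.

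The 3 genes that chose the cells are known markers of this type. Chil3 (chr3:106147554-106167564, minus strand) encodes the secreted chitinase-like protein Ym1, Plet1 (chr9:50494525-50505482, plus strand) a surface protein, and Atp6v0d2 (chr4:19876841-19922605, minus strand) a subunit of the proton pump that acidifies lysosomes. Coordinates are those of the mouse build GRCm38, which is mm10. The other 3 markers, which the selection did not use, are Mrc1 (chr2:14229392-14332057, plus strand), the mannose receptor, Ear2 (chr14:44102654-44103534, plus strand), a ribonuclease, and Krt79 (chr15:101929332-101940324, minus strand), a keratin.

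Levels by class of cell are given as CPM, the UMIs of a gene per 1000000 UMIs summed over the cells of that class in a mouse. These are 3′ tag counts and are not scaled by gene length. Chil3 stood at 6361, 7746 and 7014 CPM in the alveolar macrophages of IgG1 replicates 1 to 3, and at 6165, 7061 and 27647 CPM in those of ipilimumab replicates 1 to 3. Ipilimumab replicate 3 lies far above the other 5 mice, which span a narrow range. Plet1 lay between 1240 and 1431 CPM and Atp6v0d2 between 682 and 1039 CPM over the 6 mice. As these genes chose the cells, their levels are a description and were not tested.

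The label held for the markers outside the selection. The median over the 6 mice was 1322 CPM for Mrc1, 841 CPM for Ear2 and 189 CPM for Krt79. In 95 macrophages that carried the complement genes C1qa and C1qb and no Plet1 (5 to 22 per mouse), the medians were 571, 67.8 and 0 CPM in the same order. In 5705 B cells they were 4.75, 4.43 and 0.597 CPM. Siglecf, the lectin used to sort alveolar macrophages, had a median of 67.9 CPM, and Lpl, the lipoprotein lipase of lipid uptake, 2831 CPM. C1qa itself was close to absent, with a median of 0.966 CPM in alveolar macrophages against 2854 CPM in the C1q macrophages, whose selection used it. Marco, a scavenger receptor, was detected at 23.6 to 44.5 CPM in alveolar macrophages and had no UMI in the C1q macrophages. The plot of levels by class shows these genes for every mouse.

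**Figure D1:**
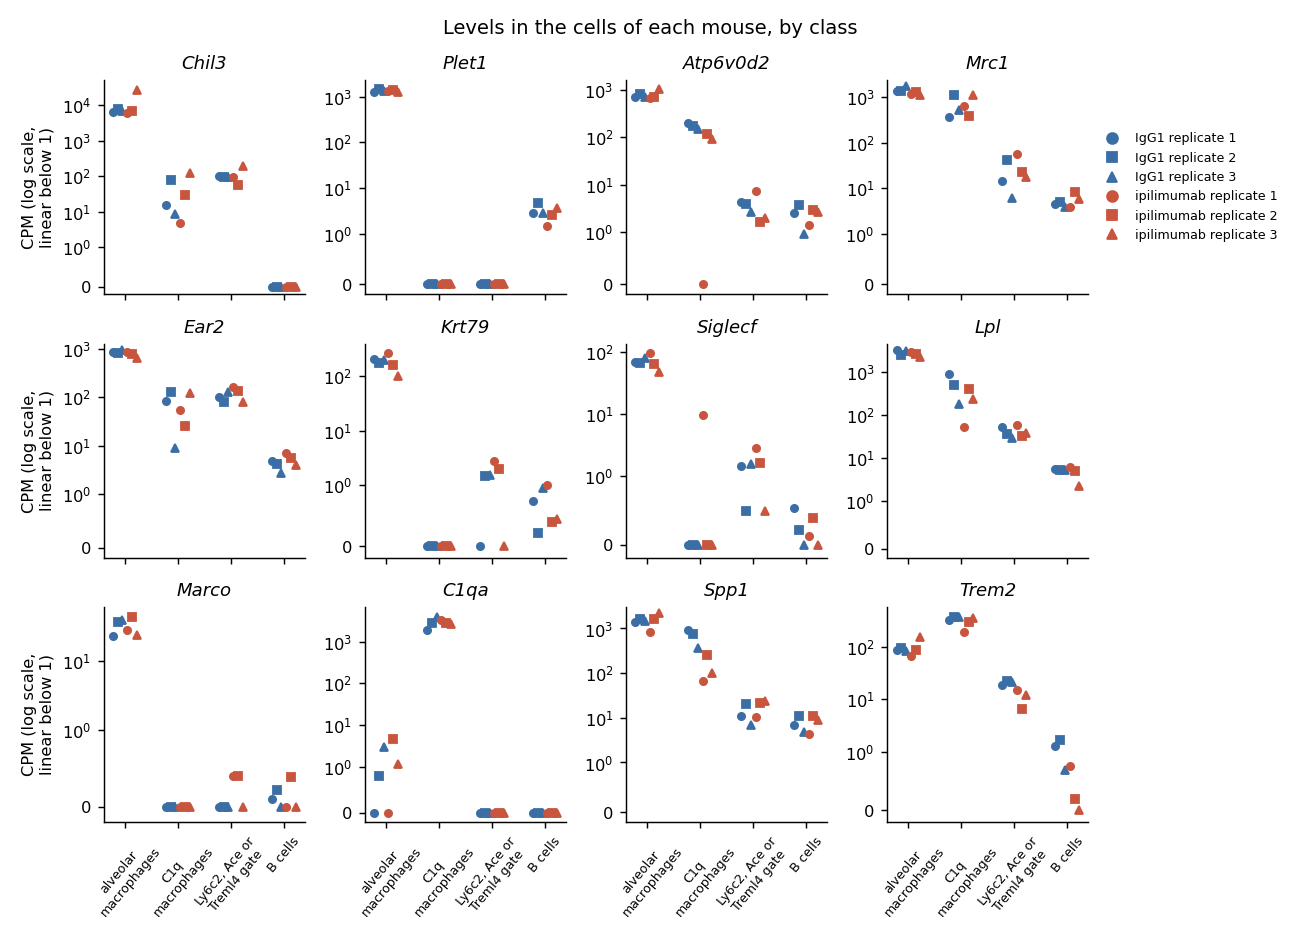
CPM of 12 genes (log scale, linear below 1) in the summed cells of 4 classes, 1 point per mouse, with IgG1 in blue and ipilimumab in red. Mrc1, Ear2, Krt79, Siglecf, Lpl and Marco, which the selection did not use, lie above the B cells in all 6 mice. C1qa is near 0 in the alveolar macrophages. Chil3 at 0 in B cells, and C1qa at 0 in B cells and in the Ly6c2, Ace or Treml4 class, follow from how those classes were chosen. The Ly6c2, Ace or Treml4 class (1358 cells) was only plotted and also held RNA of other cells. Per mouse, fibroblast marker genes summed to 282 to 2816 CPM in it and airway secretory genes to 5.22 to 7767 CPM.

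The limits of the selection left other barcodes close by. The requirement of no Cd79a or Cd3e UMI alone kept out 448 barcodes, a lack of Plet1 alone 31 and a lack of Atp6v0d2 alone 64. Another 142 barcodes met every requirement except that they had 1 to 9 Chil3 UMIs, and 96 of these were in ipilimumab replicate 1, where their median depth was 1623 UMIs. Just inside the limit, 96 alveolar macrophages had 10 to 19 Chil3 UMIs, 39 of them in the same mouse. A further 138 barcodes had at least 10 Chil3 UMIs but neither Plet1 nor Atp6v0d2, and in each mouse their Mrc1 level was at most 144 CPM.

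A pair of libraries stood apart before any comparison. Ipilimumab replicate 1 had 22056 barcodes of at least 100 UMIs, where the other 5 had 4834 to 6230, and 54 of its 296 alveolar macrophages (18.2%) had fewer than 5000 UMIs, against at most 3.899% elsewhere. Ipilimumab replicate 3 held the cells of very high Chil3 described below. Over all pairs of libraries, 3 alveolar macrophage barcodes and 70 barcodes passing the limits had the same sequence in both libraries of a pair. The libraries held 37666042 to 48612412 UMIs each.

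The share of alveolar macrophages overlapped between the treatments. They numbered 436, 775 and 250 in IgG1 replicates 1 to 3, or 9.62%, 17.9% and 7.48% of the barcodes passing the limits. In ipilimumab replicates 1 to 3 they numbered 296, 695 and 537, or 5.73%, 16.7% and 12.8%. The means were 11.7% ± 5.53 for IgG1 and 11.8% ± 5.57 for ipilimumab (SD, n = 3 mice each; difference 0.0794 percentage points, exact two-sided permutation test p = 1). With 3 mice against 3, this test cannot give a p below 0.1. Without the cells under 5000 UMIs, an alternative chosen after the data were seen, the difference was -0.346 points. Leaving out 1 mouse at a time moved the difference between -2.39 and 3.21 points.

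These cells were deep, with medians of 20200, 19967 and 24645 UMIs per cell under IgG1 and 21895, 21887 and 22538 under ipilimumab, where the median of all barcodes passing the limits was 5538 to 8013 UMIs. The plot of cells per mouse shows both measures.

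**Figure D2:**
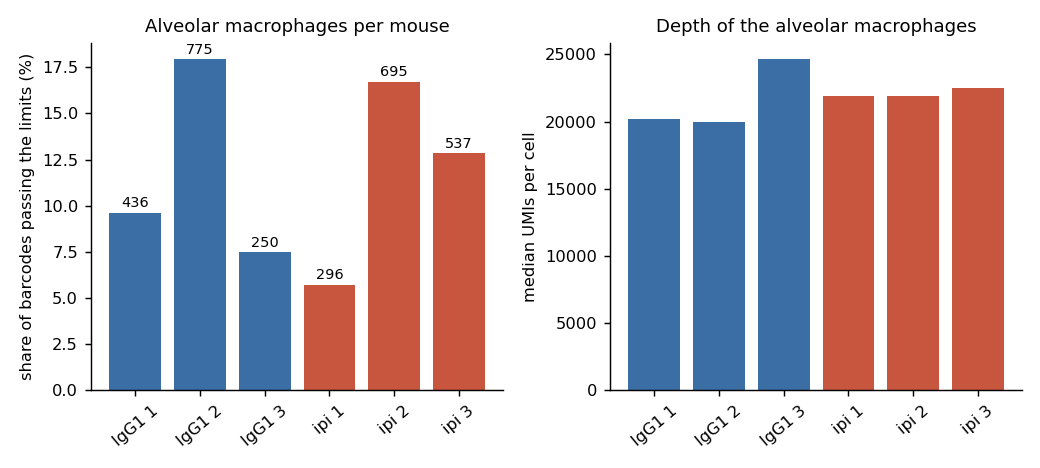
Left, alveolar macrophages as a percent of the barcodes passing the limits in each mouse, with their number above each bar; right, their median UMIs per cell. IgG1 mice are blue and ipilimumab (ipi) mice red, 1 bar per mouse; shares run from 5.73% to 17.9% and overlap between the groups.

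To compare the treatments gene by gene, the UMIs of the alveolar macrophages were summed within each mouse and tested with edgeR's quasi-likelihood test, 3 mice against 3, with Benjamini-Hochberg adjustment over 12288 genes. From here on, levels in this comparison are CPM scaled by the trimmed mean of M-values (TMM), and a fold change is ipilimumab over IgG1 on the log2 scale with its standard error. A call required both an adjusted p below 0.05 and a log2 fold change above 0.3 in size. The p-values measure the spread between these mice. In sums over cells, fewer cells with a transcript and fewer transcripts per cell cannot be told apart.

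No gene was called (0%), and the smallest adjusted p was 0.121, for Timp3. At an unadjusted p under 0.05 there were 593 genes (4.83% of those tested), 342 higher (2.78%) and 251 lower (2.04%) after ipilimumab. The 6 mice separated completely by treatment at 1317 genes (10.7%), 738 higher (6.01%) and 579 lower (4.71%). The median log2 fold change of all genes was 0.01. DESeq2 called 18 genes of the 12281 to which it gave an adjusted p (0.147%), and edgeR without a filter on low counts called 19 of 21987 (0.0864%). The calls of both included the fibroblast genes Mgp, Dcn and Col1a2, the endothelial genes Cldn5 and Cdh5, the airway gene Scgb1a1 and, as the 1 gene lower after ipilimumab, the neutrophil gene S100a9. Without the cells under 5000 UMIs or without those of very high Chil3, edgeR again called 0 genes, with 579 and 635 at an unadjusted p under 0.05.

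The abundant genes of the alveolar macrophage overlapped between the groups. The 10 with the most UMIs were Gm42418, the ferritin chains Fth1 and Ftl1, the lysozyme gene Lyz2, the actin gene Actb and Tmsb4x, whose product binds actin, the nuclear RNA Malat1, and the mitochondrial genes mt-Co1, mt-Atp6 and mt-Co3. Lyz2 stood at 14455, 15100 and 14516 CPM under IgG1 and at 13086, 14331 and 14757 CPM under ipilimumab, a log2 fold change of -0.06 ± 0.11. Fth1 had its highest value, 25870 CPM, in ipilimumab replicate 3, against 11759 to 15788 CPM in the other 5 mice. Its groups overlapped, as did those of the other 9.

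No gene was called, and the genes nearest to a call among those higher after ipilimumab are known from other cell types. The 5 with the smallest p among those higher after ipilimumab were Timp3, an inhibitor of metalloproteinases, Col1a2, a chain of collagen I, Scgb1a1, the secretory protein of airway club cells, Ecscr, an endothelial surface protein, and Mgp, the matrix Gla protein of stromal cells. Timp3 was at 0.330, 0.494 and 0.496 CPM under IgG1 and at 3.23, 4.21 and 4.36 CPM under ipilimumab. Behind these values were 3, 8 and 3 UMIs against 20, 67 and 56. The groups did not overlap, with a log2 fold change of 3.13 ± 0.32.

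Col1a2 rested on even fewer molecules, with 0, 1 and 1 UMIs under IgG1 and 14, 30 and 34 under ipilimumab. Mgp was at 0.879, 0.988 and 1.98 CPM against 8.39, 24.97 and 9.50 CPM, a log2 fold change of 3.61 ± 0.53. Ecscr had 1, 2 and 1 UMIs against 9, 23 and 18. In all 4 genes each ipilimumab mouse lay above each IgG1 mouse, and none was called (edgeR quasi-likelihood test, adjusted p 0.121 to 0.336).

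The endothelial list was divided. Its 6 genes summed to 23.7, 59.4 and 30.3 CPM in the alveolar macrophages of the IgG1 mice and to 24.9, 34.1 and 55.7 CPM in those of the ipilimumab mice, with overlap and each of the 6 with a UMI. Of the 5 that passed the filter, Cldn5, Cdh5, Egfl7 and Tmem100, each under 8 CPM in every mouse, were higher in each ipilimumab mouse than in each IgG1 mouse (background 6.01%), and 3 had an unadjusted p under 0.05 (background 2.78%). Pecam1, the most abundant, which leukocytes also carry, was at 20.2, 54.9 and 27.1 CPM against 11.5, 25.6 and 36.0 CPM, a log2 fold change of -0.47 ± 0.44.

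A handful of cells carried most of the fibroblast RNA. The 6 fibroblast genes fixed as markers (Col1a2, Mgp and Dcn passed the filter on low counts) summed to 1.65, 1.91 and 3.92 CPM in the alveolar macrophages of the IgG1 mice and to 15.4, 37.6 and 19.7 CPM in those of the ipilimumab mice, with Mgp the most abundant and each of the 6 with a UMI in at least 1 mouse. In ipilimumab replicate 1, 2 of 296 cells held 52 of the 92 fibroblast UMIs. In replicate 2, 2 of 695 cells held 557 of 598 UMIs, 416 of them in 1 cell. In replicate 3, 1 of 537 cells held 183 of 261 UMIs. No alveolar macrophage of the IgG1 mice had more than 1 fibroblast UMI. Without the cells that held at least 10 such UMIs, the sums were 1.65, 1.91 and 3.92 CPM against 6.67, 2.58 and 5.87 CPM, over the same total.

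Leaving out every cell with at least 10 fibroblast or endothelial UMIs, an alternative chosen after the data were seen, edgeR called 0 genes and 544 had an unadjusted p under 0.05. On the unscaled CPM of the remaining cells, Timp3 stood at 0.332, 0.384 and 0.501 under IgG1 and at 2.37, 0.512 and 1.18 under ipilimumab, still without overlap. Col1a2 was also still apart, at 0, 0.0641 and 0.167 against 0.339, 0.192 and 1.10. Mgp stood at 0.886, 0.833 and 2.00 against 4.24, 1.15 and 2.51, and Ecscr at 0.111, 0 and 0.167 against 0.848, 0.767 and 0.0784. For Mgp and Ecscr the groups then overlapped.

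Scgb1a1 was spread over more cells. It was at 12.4, 8.03 and 6.78 CPM under IgG1 and at 38.1, 27.4 and 31.5 CPM under ipilimumab, without overlap, at a log2 fold change of 1.81 ± 0.22 (edgeR quasi-likelihood test, adjusted p = 0.135, not called). A UMI of the 6 airway secretory genes was found in 22.7%, 12.9% and 12% of the alveolar macrophages of the IgG1 mice and in 37.2%, 31.1% and 51.0% of those of the ipilimumab mice. Without the cells left out above, Scgb1a1 was 12.5, 8.33 and 6.68 against 39.3, 27.4 and 30.4 unscaled CPM. The size of the difference depended on how the cells were chosen: the log2 fold change was 7.32 when 1 Chil3 UMI was enough and 5.44 when Plet1 or Atp6v0d2 was enough, and neither was called. The cause was not tested.

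The same genes were present outside the alveolar macrophages. In barcodes of at most 100 UMIs, which hold free RNA, the airway secretory genes summed to 1217, 2063 and 478 CPM in the IgG1 libraries and to 14901, 13833 and 2783 CPM in the ipilimumab libraries. In B cells, which do not make them, they summed to 9.94, 11.7 and 3.97 CPM against 152, 78.9 and 30.3 CPM. The ipilimumab libraries were the higher in each of these 3 places, and the part of free RNA in the Scgb1a1 difference was not tested further.

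Neutrophil genes went the other way. The 7 of the list summed to 151, 173 and 97.2 CPM in the alveolar macrophages of the IgG1 mice and to 78.4, 80.1 and 104 CPM in those of the ipilimumab mice. These sums overlapped. Cells with at least 10 such UMIs numbered 9, 19 and 2 under IgG1 and 3, 12 and 22 under ipilimumab. Without them the sums were 63.1, 78.2 and 63.3 CPM against 54.2, 57.1 and 62.5 CPM, over the same total. All 6 genes of the list that passed the filter had a negative log2 fold change, with a median of -0.47. Of these, 3 had an unadjusted p under 0.05 (background 2.04%) and 3 were lower without overlap (background 4.71%). S100a9, a calcium-binding protein of neutrophils, was at 37.1, 55.2 and 16.2 CPM under IgG1 and at 11.0, 8.62 and 14.8 CPM under ipilimumab, without overlap (-1.69 ± 0.40, edgeR quasi-likelihood test, adjusted p = 0.774). In the barcodes of free RNA the list summed to 3131, 6907 and 1977 CPM against 2324, 2066 and 1425 CPM. Its part in the difference was not tested. At least 3 UMIs of another cell type's markers were found in 25.7% to 40.8% of the alveolar macrophages of a mouse, and doublets were not called by a separate tool.

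**Figure D3:**
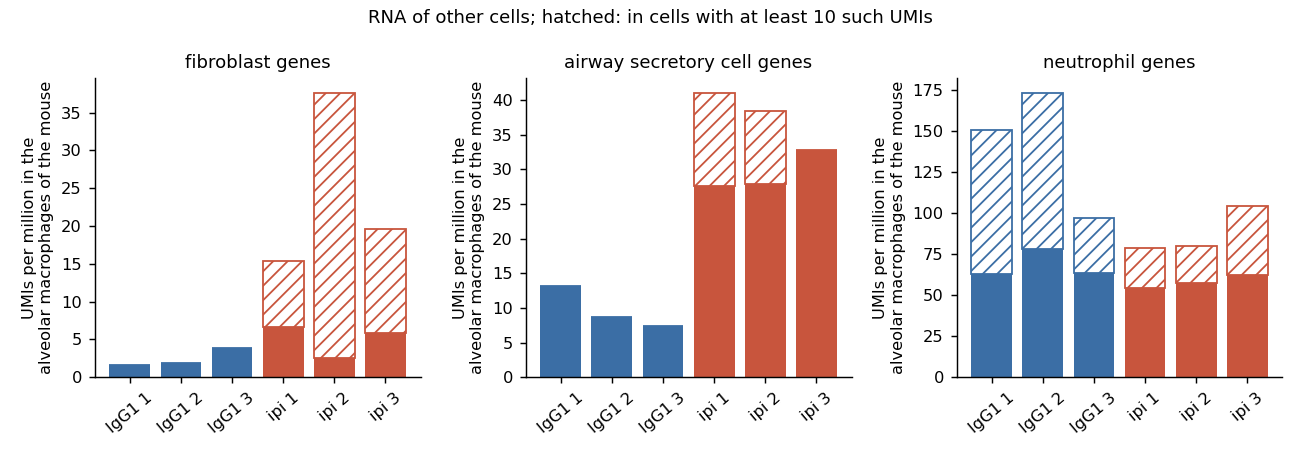
UMIs of fibroblast, airway secretory and neutrophil genes as CPM of the alveolar macrophages, 1 bar per mouse (IgG1 blue, ipilimumab red). The hatched share lies in cells with at least 10 UMIs of that list and the filled share in all others; 2, 2 and 1 cells make the hatched fibroblast share of ipilimumab replicates 1, 2 and 3.

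Among genes lower after ipilimumab, the 5 with the smallest p were Gm12940, Gm46332, Gm14009, Eldr and Ifih1, and none was called. Ifih1, which encodes the viral RNA sensor MDA5, was at 46.1, 35.1 and 43.1 CPM under IgG1 and at 29.4, 29.9 and 27.6 CPM under ipilimumab, a log2 fold change of -0.51 ± 0.12. The groups did not overlap. Of 14 interferon-stimulated genes that passed the filter, 7 had a positive fold change and none an unadjusted p under 0.05.

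No gene of alveolar macrophage identity was called. Of 21 tested, 7 had a positive fold change, 1 had an unadjusted p under 0.05 and was lower (background 2.04%), 2 were lower without overlap (background 4.71%), and the median log2 fold change was -0.10. The gene under 0.05 was Mrc1, at 1382, 1339 and 1802 CPM under IgG1 and 1133, 1307 and 1174 CPM under ipilimumab, with no overlap (-0.32 ± 0.14, edgeR quasi-likelihood test, adjusted p = 0.867). Ear2 was at 888 ± 79.1 CPM against 760 ± 92.0 CPM and Krt79 at 194 ± 14.96 CPM against 173 ± 76.9 CPM (SD, n = 3 mice each), and both overlapped. Reads of Ear2 and its near-identical relative Ear1 may have been split between them, so the level of each is uncertain, as it is for Chil3 and Chil4.

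Siglecf overlapped as well, at 68.4, 67.3 and 80.7 CPM against 93.9, 64.4 and 50.04 CPM. Each cell of at least 2000 UMIs was then thinned to 2000 UMIs. Cells with fewer were left out, so that 271 of 296 alveolar macrophages remained in ipilimumab replicate 1. A Siglecf UMI was found in 13.2% ± 3.17 of the thinned alveolar macrophages of the IgG1 mice and 12.99% ± 3.16 of those of the ipilimumab mice (SD, n = 3 each; exact permutation p = 0.8). B cells had at most 0.0864% at the same depth. Unthinned, the share was 54.6% to 63.6% over the 6 mice.

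Genes of lipid handling and of the signals that maintain the cells overlapped for the most part. Among 20 lipid and surfactant genes the median log2 fold change was 0.06, and none had an unadjusted p under 0.05. The 3 with the most UMIs were Lpl (-0.16 ± 0.13), the cholesterol exporter Abcg1 (-0.19 ± 0.11) and the lipid droplet protein Plin2 (0.07 ± 0.11). Of 16 genes of the GM-CSF, TGF-β and PPAR-γ axis, 1 had an unadjusted p under 0.05 and was higher (background 2.78%), and the median was 0.03. The transcription factors Cebpb, Bhlhe40 and Klf4 led this list in UMIs, each overlapping between the groups.

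The molecules through which ipilimumab or its target could meet a macrophage were present. Cd80, a ligand of CTLA4, was at 53.5, 55.7 and 43.3 CPM under IgG1 and at 52.6, 67.2 and 40.5 CPM under ipilimumab, a log2 fold change of 0.07 ± 0.18. Cd86, the other ligand, was at 112, 81.3 and 176 CPM against 78.1, 124 and 61.3 CPM (-0.47 ± 0.32). Both overlapped, and the fold change of Cd80 was smaller than its error.

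Ligands that stimulate or inhibit T cells overlapped for the most part. Of 11 tested, 4 had a positive fold change, 1 had an unadjusted p under 0.05 and was lower (background 2.04%), and the median was -0.10. That gene, named after its values were seen, was Il15, a cytokine that sustains T and NK cells, at 13.1, 11.99 and 21.7 CPM against 8.71, 12.01 and 9.18 CPM, with overlap. Il18, a cytokine of the inflammasome, was lower without overlap at -0.20 ± 0.13 (background 4.71%). Sirpa, a receptor that restrains phagocytosis, and Cd274, which encodes PD-L1, had fold changes of -0.03 ± 0.09 and 0.05 ± 0.11. Ctla4 itself had 1.98 to 5.51 unscaled CPM in the alveolar macrophages of a mouse, against 171 to 265 CPM in the barcodes of free RNA of the same libraries.

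Of the 7 Fc receptor genes, Fcgr2b, the inhibitory receptor for IgG, was the 1 with an unadjusted p under 0.05 (background 2.78% higher). It was at 49.6, 64.1 and 68.9 CPM under IgG1 and 84.4, 62.1 and 113 CPM under ipilimumab, and the groups overlapped (0.51 ± 0.22). In ipilimumab replicate 3, Fcgr2b was at 188 unscaled CPM in the cells of very high Chil3 described below. In the other cells of at least 5000 UMIs of that mouse it was at 75.9 CPM. The activating receptors Fcgr1 (-0.39 ± 0.18), Fcgr3 (-0.03 ± 0.10) and Fcgr4 (-0.11 ± 0.12) overlapped, as did their shared signalling chain Fcer1g (0.16 ± 0.11). The median of the list was -0.04.

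MHC class II genes, which present antigen to CD4+ T cells, had a small positive median difference without a call. Of 13 genes of this list, 10 had a positive fold change, 2 had an unadjusted p under 0.05 and were higher (background 2.78%), and the median was 0.22. Ipilimumab replicate 1 was the highest mouse for 7 of the 13, where it was highest for 18.6% of all genes, and IgG1 replicate 3 and ipilimumab replicate 3 the lowest for 4 each (22.04% and 26.4% of all genes). The 2 genes under 0.05, named after their values were seen, were H2-Eb1 and H2-Ab1. H2-Eb1 was at 112, 135 and 107 CPM under IgG1 and at 164, 159 and 139 CPM under ipilimumab, without overlap (0.38 ± 0.12, edgeR quasi-likelihood test, adjusted p = 0.867). H2-Ab1 was at 178, 195 and 177 CPM against 249, 224 and 193 CPM, with overlap. Ctss and Cd74, a protease and a chaperone of the same pathway, had fold changes of -0.06 ± 0.09 and 0.22 ± 0.15. Igkc, the most abundant of the B cell markers, was at 22.5, 19.4 and 15.7 CPM in the alveolar macrophages of the IgG1 mice and at 26.0, 12.1 and 48.5 CPM in those of the ipilimumab mice. Dendritic cells also hold MHC class II RNA. Their 6 markers summed to 10.2, 14.4 and 7.34 CPM in the alveolar macrophages of the IgG1 mice and to 14.02, 23.1 and 12.7 CPM in those of the ipilimumab mice, with overlap, Clec9a the most abundant and none at 0 throughout. Of the 5 that passed the filter, 3 had a positive fold change, and Flt3 and Ccr7 were higher without overlap (background 6.01%) at an unadjusted p under 0.05 (background 2.78%), both at most 10.3 CPM in any mouse. The part of B cell and dendritic cell RNA was not tested.

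The genes that respond to interferon gamma, the cytokine of activated T cells, had no call and a median fold change of 0.05. Of 19 tested, 12 had a positive fold change and 1 had an unadjusted p under 0.05 and was higher (background 2.78%). Without overlap, 2 were higher (background 6.01%) and 0 lower (background 4.71%). Ifngr1, a chain of the receptor, had a fold change of -0.06 ± 0.11, and the transcription factor Irf8 and the proteasome subunit Psmb8 of 0.06 ± 0.16 and 0.08 ± 0.09. The inflammatory cytokines and chemokines had 4 of 20 genes at an unadjusted p under 0.05, 3 higher (background 2.78%) and 1 lower (background 2.04%). Cxcl2, a neutrophil chemokine and the most abundant of them, was at 637, 543 and 860 CPM against 378, 651 and 710 CPM.

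The genes linked to scar-associated macrophages had no call. Spp1, which encodes osteopontin, was at 1377, 1631 and 1504 CPM under IgG1 and at 804, 1586 and 2258 CPM under ipilimumab (0.04 ± 0.31). The lowest and the highest mouse were both in the ipilimumab group. Trem2, a lipid receptor, had the same lowest and highest mouse, at 87.7, 97.1 and 84.5 CPM against 65.6, 86.6 and 157 CPM (0.20 ± 0.28). Cd9, a tetraspanin, and Lgals3, galectin 3, with Spp1 the 3 of the list with the most UMIs, overlapped, with fold changes of -0.04 ± 0.10 and 0.28 ± 0.19.

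Over the list of 19 tested, 14 had a positive fold change, the median was 0.23 and 1 gene had an unadjusted p under 0.05 and was higher (background 2.78%). Ipilimumab replicate 3 was the highest mouse for 12 of the 19 genes, where it was highest for 27.1% of all genes, and ipilimumab replicate 1 the lowest for 8. Without replicate 3 the fold changes of Spp1 and Trem2 were -0.33 and -0.23. The share of thinned cells with an Spp1 UMI was 55.1% ± 2.53 under IgG1 and 57.5% ± 6.99 under ipilimumab (SD, n = 3 each; exact permutation p = 0.6), against 0.731% to 2.53% in B cells and 7.69% to 20% in the C1q macrophages.

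Spp1 also varied among the cells of each mouse. In cells of at least 5000 UMIs the median was between 274 and 623 CPM per cell over the 6 mice, and the 90th percentile between 1914 and 4479 CPM. From 4.61% to 10.7% of these cells had no Spp1 UMI. Mrc1 was more even, with a median of 1090 to 1670 CPM per cell and a 10th percentile of 492 to 829 CPM over the mice.

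Lysosome and iron genes were most often highest in ipilimumab replicate 3. Of 20 lysosome genes, ipilimumab replicate 3 was the highest for 14 (27.1% of all genes) and replicate 1 the lowest for 11 (17.8% of all genes), and the median fold change was 0.06. The protease Ctsd was at 4504, 5140 and 4611 CPM under IgG1 and 4146, 4853 and 6953 CPM under ipilimumab. Of 10 iron and heme genes, replicate 3 was the highest for 6, against the same 27.1%, and IgG1 replicate 3 the lowest for 5 (22.04% of all genes). No gene of either list had an unadjusted p under 0.05.

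Senescence genes were measured because fibrotic lungs accumulate senescent cells. Cdkn1a, the p53 target that encodes the cell cycle inhibitor p21, was at 559, 701 and 409 CPM under IgG1 and at 581, 735 and 676 CPM under ipilimumab (0.25 ± 0.19). Cdkn2a, which encodes p16, was low, at 4.50, 8.59 and 6.12 CPM against 3.55, 7.36 and 5.29 CPM (-0.23 ± 0.32). Both overlapped. None of 12 genes of the list had an unadjusted p under 0.05, and the median was 0.02.

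Genes of cell division leaned to one side. All 20 had a positive fold change, with a median of 0.81, and 10 had an unadjusted p under 0.05 (background 2.78% higher). At 10 of the 20 every ipilimumab mouse lay above every IgG1 mouse (background 6.01% higher). None was called, and the smallest adjusted p in the list was 0.867 (edgeR quasi-likelihood test). Genes of 1 programme vary together, so the 20 are not independent.

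Mki67, the proliferation marker, was at 44.1, 31.1 and 15.5 CPM under IgG1 and at 68.4, 43.2 and 44.2 CPM under ipilimumab, with a small overlap (0.75 ± 0.33). Hmgb2, Stmn1 and Top2a, a chromatin protein, a microtubule regulator and a topoisomerase, had the most UMIs of the list. Stmn1 was at 76.0, 73.8 and 35.5 CPM against 97.9, 92.9 and 87.8 CPM (0.57 ± 0.24), and Top2a at 40.8, 32.5 and 8.92 CPM against 89.5, 44.9 and 37.3 CPM (1.004 ± 0.49). Birc5, the mitotic regulator survivin, named after its values were seen, was at 15.1, 16.6 and 5.95 CPM against 35.6, 26.0 and 23.0 CPM (1.10 ± 0.32). Ipilimumab replicate 1 was the highest and IgG1 replicate 3 the lowest in each of Mki67, Stmn1, Top2a and Birc5.

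These mice were the extremes throughout the list. IgG1 replicate 3 was the lowest for 18 of the 20 genes, where it was lowest for 22.04% of all genes, and ipilimumab replicate 1 the highest for 19, where it was highest for 18.6% of all genes. Over all barcodes passing the limits, alveolar macrophages included, the 20 summed to 624, 833 and 559 CPM under IgG1 and 968, 609 and 694 CPM under ipilimumab. In the barcodes of free RNA they summed to 538, 699 and 487 CPM against 811, 485 and 594 CPM. Ipilimumab replicate 1 was the highest in both, and the part of free RNA was not tested. Without ipilimumab replicate 1 the median fold change was 0.56 and 3 genes had an unadjusted p under 0.05, beside 7.27% of all genes in either direction in that fit. Without IgG1 replicate 3 the median was 0.52 and 9 genes passed, beside 3.31% of all genes. With the cells that carried other cells' RNA left out, 3 genes passed at a median of 0.80, beside 3.92% of all genes. With cells thinned to 2000 UMIs, 3 of the 11 genes still testable passed at a median of 0.45, beside 5.03% of all genes.

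Counted per cell, the direction was the same. After thinning to 2000 UMIs, at least 3 division genes were found in 3.45%, 4.01% and 1.20% of the alveolar macrophages of the IgG1 mice and in 6.27%, 4.55% and 6.05% of those of the ipilimumab mice. The groups did not overlap, at 2.89% ± 1.49 and 5.62% ± 0.939 (SD, n = 3 each; difference 2.74 points, exact permutation p = 0.1, the smallest that 3 against 3 can give). B cells had 0.0650%, 0.394% and 0.418% under IgG1 and 0.259%, 0.842% and 1.04% under ipilimumab, with overlap and the highest shares under ipilimumab. In the sums of all B cells the 20 genes were at 285, 395 and 289 CPM against 376, 352 and 272 CPM. The C1q macrophages, with 5 to 22 cells per mouse before thinning, had 0% to 20%. Cells under 2000 UMIs were left out of the thinned shares here as well. Without thinning the shares were 33.5%, 41.8% and 37.6% against 36.5%, 37.7% and 46.4%, and overlapped. At 5000 UMIs a cell the difference was 1.76 points with overlap (exact permutation p = 0.4), and with 2 genes enough at 2000 UMIs the shares were 6.58% ± 2.31 and 9.03% ± 1.17, also with overlap (exact permutation p = 0.3). Without the cells under 5000 UMIs, an alternative chosen after the data were seen, the shares were 3.51% ± 0.576 and 5.16% ± 0.960. The groups then did not overlap, at a difference of 1.66 points. The separation thus depended on the depth and on the number of genes required.

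**Figure D4:**
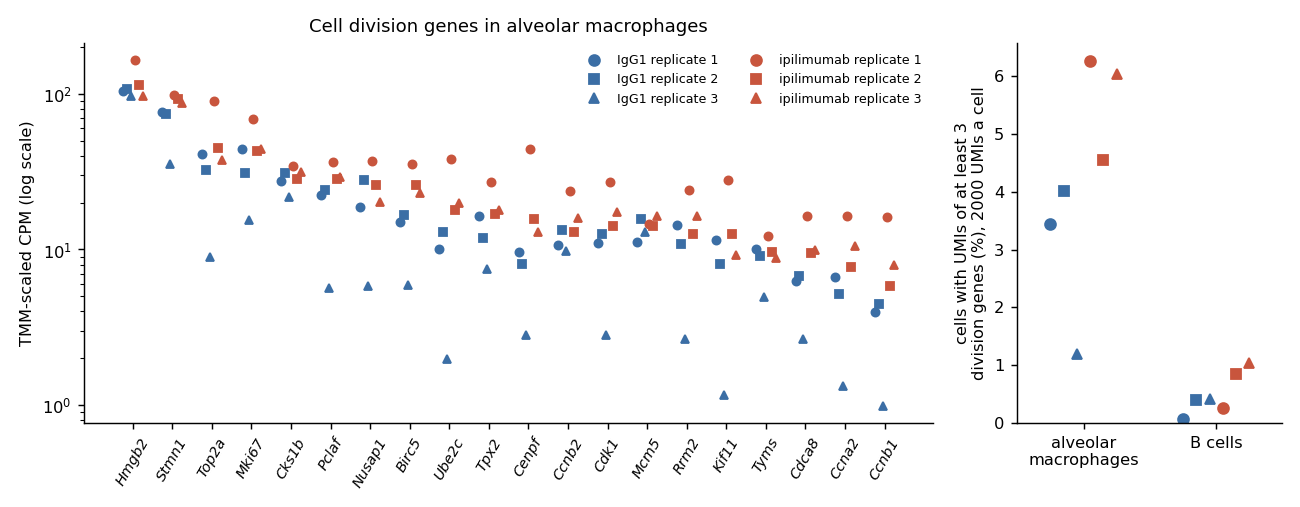
Left, TMM-scaled CPM of 20 cell division genes in the alveolar macrophages (log scale), 1 point per mouse, IgG1 in blue and ipilimumab in red; right, the percent of cells with UMIs of at least 3 of these genes after thinning to 2000 UMIs a cell. Ipilimumab replicate 1 is the highest point for 19 genes and IgG1 replicate 3 the lowest for 18; the thinned shares are 1.20% to 4.01% under IgG1 and 4.55% to 6.27% under ipilimumab.

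Genes switched on within minutes of stress, which also report how lung tissue was dissociated, were compared as a sign of handling. Of 15, 2 had a positive fold change and 1, lower, an unadjusted p under 0.05 (background 2.04%), and the median was -0.20. Fos was at 1392, 1155 and 1769 CPM under IgG1 and 1148, 1299 and 981 CPM under ipilimumab, and Junb (0.10 ± 0.13) and Fosb (-0.13 ± 0.10) overlapped too. IgG1 replicate 3 was the highest mouse for 11 of the 15, where it was highest for 21.1% of all genes. That mouse was also the lowest for most division genes, and the part of handling in that order was not tested.

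The high Chil3 of ipilimumab replicate 3 came from a set of cells. Among its 521 alveolar macrophages of at least 5000 UMIs, 120 (23.0%) had at least 30000 CPM of Chil3, a limit set after the values were seen. The other 5 mice had 2, 12 and 1 such cells under IgG1 and 0 and 6 under ipilimumab. Few cells of this mouse lay near the limit, with 19 at 20000 to 30000 CPM, 13 at 30000 to 40000 CPM and 107 above. The 90th percentile of Chil3 per cell was 75638 CPM in this mouse and 9620 to 11472 CPM in the others. In its barcodes of free RNA Chil3 was at 18235 CPM, against 1874 to 5278 CPM elsewhere.

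As the cells were chosen by a gene's level, what follows compares sums of cells within 1 mouse, without a test. The high cells were deeper, at a median of 33083 UMIs against 20883, and had 4.77% mitochondrial UMIs against 3.70%. Genes were taken from both ends of the ratio between the 2 sets and chosen after the values were seen. For this ratio 20 CPM were added to both sides, which shrinks it for genes of low level.

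Some of the genes with a large ratio encode secreted proteins. Fstl1, a follistatin-like glycoprotein, was at 767 CPM in the high cells and 38.5 CPM in the others. Inhba, the activin subunit, was at 597 against 40.8 CPM, and Mmp12 (chr9:7344381-7369499, plus strand), the macrophage elastase, at 1484 against 211 CPM. The cysteine protease Ctsk was at 3292 against 915 CPM, and Mfge8, a bridge for engulfing dying cells, at 804 against 145 CPM.

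Further genes with a large ratio had other roles. Fabp4, a fatty acid carrier, was at 1162 against 183 CPM, and Gpnmb, a lysosomal glycoprotein of lipid-laden macrophages, at 968 against 309 CPM. Awat1, a wax ester synthase, was at 164 against 4.53 CPM, and Ch25h, the cholesterol 25-hydroxylase, at 188 against 26.0 CPM. Fbp1, of gluconeogenesis, had 362 UMIs in the high cells and 2 in the others, and the retinol carrier Rbp4 612 and 0. The list of lipid and surfactant genes as a whole was divided: 10 of 20 were higher in the high cells, 2 by more than 2-fold, and 4 were more than 2-fold lower. Of all 11335 genes with at least 20 UMIs, 3689 were higher, 0.785% by more than 2-fold, and 1.99% were more than 2-fold lower.

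Other genes were lower in the high cells. Among them in this mouse were genes of antigen presentation, with Cd74 at 151 against 890 CPM and H2-Aa at 53.5 against 267 CPM. The ribonuclease Ear1 was at 34.9 against 279 CPM, C5ar1, the receptor for complement C5a, at 6.79 against 160 CPM, and the cholesterol exporter Abca1 at 44.2 against 407 CPM. Of the 5 markers besides Chil3, Atp6v0d2 was at 1496 against 842 CPM, Mrc1 at 1102 against 1152 CPM and Plet1 at 1070 against 1313 CPM. Krt79 was at 70.1 against 112 CPM and Ear2 at 265 against 794 CPM. Of 24 identity genes, 5 were more than 2-fold higher in the high cells and 4 more than 2-fold lower. Chil3, which chose the high cells, is among these 5. Of all genes with at least 20 UMIs, 0.785% were more than 2-fold higher and 1.99% more than 2-fold lower. Spp1 was at 1565 against 2453 CPM, so it was not among the genes higher in these cells.

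Over whole lists and with the 20 CPM added, 6 of 19 profibrotic genes with at least 20 UMIs were more than 2-fold higher in the high cells, at a median log2 ratio of 0.52. Of 13 antigen presentation genes 6 were more than 2-fold lower, at a median of -0.44. Of all 11335 genes with as many UMIs, 89 (0.785%) were more than 2-fold higher and 225 (1.99%) more than 2-fold lower. On plain CPM, 8 profibrotic genes were more than 2-fold higher and 1 lower (median 0.55), and 8 antigen presentation genes were lower (median -1.73), beside 431 (3.80%) of all genes higher and 1495 (13.2%) lower. The medians with the 20 CPM were -0.31 for cell division and -0.66 for immediate early genes, beside -0.09 for all genes, and on plain CPM -0.82 and -0.68, beside -0.24. Mki67 was at 27.9 CPM in the high cells and 49.1 CPM in the others. An Mki67 UMI was nevertheless found in 27.5% of the high cells, which were deeper, and in 12.2% of the others. Fibroblast RNA was also higher in the high cells: the 6 marker genes summed to 53.5 CPM against 5.18 CPM, and Mgp was at 24.6 against 2.59 CPM. Without the cells of at least 10 fibroblast or endothelial UMIs, 116 high cells and 390 others remained and the sums were 7.33 and 4.83 CPM, while Fstl1 was at 773 against 37.4 CPM and Inhba at 611 against 42.4 CPM.

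The other mice held 21 high cells. Of the 24 genes with the largest ratio in ipilimumab replicate 3, 19 (79.2%) were also higher in those cells, at a median log2 ratio of 0.73, beside 39.0% of all genes at a median of -0.063. Mmp12 was at 1193 against 52.9 CPM and Fbp1 at 97.0 against 0.324 CPM. Fstl1 was not higher, with 1 UMI in all 21 cells. Of the 25 genes with the smallest ratio 15 (60%) were lower there, at a median of -0.11, a share near the 60.9% of all genes that were lower. Ear1 and C5ar1 were lower in these cells too, but Cd74 at 1027 against 849 CPM, H2-Aa at 322 against 236 CPM and Abca1 at 503 against 414 CPM were higher.

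Without the high cells, Chil3 in ipilimumab replicate 3 was 8407 CPM, beside 6165 to 6863 CPM in the other 5 mice after the same step. Mmp12 went from 592 to 210 CPM, where the other 5 mice had 25.2 to 77.7 CPM, and Gpnmb from 506 to 308 CPM, where they had 91.8 to 173 CPM. This mouse was thus the highest for both genes with and without the high cells. Whether these cells belong to 1 animal, 1 library or 1 sequencing run cannot be told apart here, since each mouse gave 1 library.

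**Figure D5:**
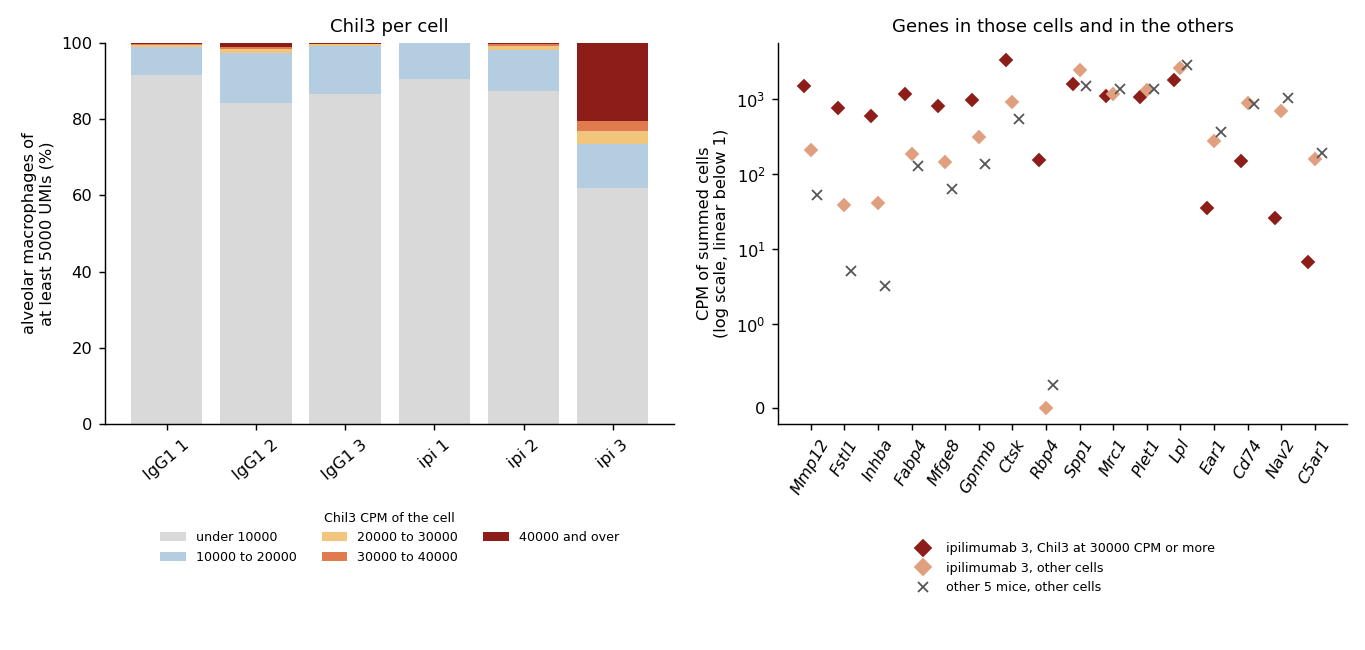
Left, the percent of alveolar macrophages of at least 5000 UMIs in 5 ranges of Chil3 CPM per cell, 1 bar per mouse; right, CPM (log scale, linear below 1) of 16 genes summed over the cells of ipilimumab replicate 3 with at least 30000 CPM of Chil3, over its other cells, and over the other cells of the remaining 5 mice. In ipilimumab replicate 3, 107 of 521 cells exceed 40000 CPM, and Mmp12, Fstl1, Inhba, Fabp4, Mfge8, Gpnmb, Ctsk and Rbp4 are higher in its high cells while Ear1, Cd74, Nav2 and C5ar1 are lower.

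Finally, the effect of treatment in alveolar macrophages was set against that in the C1q macrophages of the same mice, with an interaction term in a fit that kept the mouse as a block. No gene was called of 11506 (0%), 487 had an unadjusted p under 0.05 (4.23%), and DESeq2 called 0, with 330 at an unadjusted p under 0.05. The 5 genes with the smallest p were Adgrl2, Spp1, Klf7, F10 and Plcb1. On unscaled CPM, Spp1 in the C1q macrophages was 937, 733 and 370 under IgG1 and 67.5, 251 and 99.3 under ipilimumab, without overlap, where it overlapped in the alveolar macrophages (interaction 2.29 ± 0.46, edgeR quasi-likelihood test, adjusted p = 0.260). Without a filter on low counts 28 genes were called, and 7 when cells carrying other cells' RNA were left out. Leaving out 1 mouse gave 7, 0 and 2 calls without IgG1 replicates 1, 2 and 3, and 6, 9 and 5 without ipilimumab replicates 1, 2 and 3. Spp1 was among the genes called without IgG1 replicate 3 (edgeR quasi-likelihood test, adjusted p = 0.00259), ipilimumab replicate 1 (0.0334) or ipilimumab replicate 2 (0.00141) and in the fit without a filter, and its interaction was 1.78 to 2.83 over the fits that left out 1 mouse. The C1q macrophages numbered 5 to 22 per mouse, 95 in all, which limits the precision of this comparison. Their median depth ran from 5853 UMIs in ipilimumab replicate 1 to 25032 in IgG1 replicate 3. They also held other cells' RNA. Fibroblast genes summed to 1906 CPM in ipilimumab replicate 1 and to 0 to 70.4 CPM in the other mice. Endothelial genes summed to 403 CPM in ipilimumab replicate 3 and to 5.02 to 185 CPM elsewhere. With cells carrying such RNA left out, the Spp1 interaction was 1.97 and not called.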

How the data were processed

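Cells of the right lung of 6 mice, 3 treated with IgG1 and 3 with ipilimumab, were measured in 1 Chromium 3′ library each. The deposited values are UMI counts per gene and barcode for every barcode, which the authors made by aligning reads to mm10 with Cell Ranger (version 7.0.0 in the submitters' processing notes; the file header and the study's methods name other versions). Replicates were not pooled, and the cell names and quality limits of the authors were not used. That the files hold barcodes of few UMIs allows free RNA to be measured, but no correction for it was made here.

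Cells were chosen by counts as given above. C1q macrophages had at least 2 UMIs each of C1qa and C1qb, no Plet1 and fewer than 10 Chil3, and B cells at least 2 of Cd79a, at least 1 of Ms4a1 and no Cd3e, C1qa or Chil3. Doublets were not called; as an alternative, cells with at least 3 UMIs of another type's markers were left out. UMIs were summed per mouse and tested with edgeR 4.0.16 (limma 3.58.1, R 4.3.3; TMM scaling, quasi-likelihood test, treatment as the only term) on genes kept by its filter on low counts, without the 5 genes of the selection. DESeq2 1.42.0, other scalings, other limits on cells, thinning and leaving out each mouse were alternatives. The interaction was fitted with the mouse as a block. The fits were tested on simulated data before use. Shares and depths were compared with exact two-sided permutation tests over mice. Python 3.11.15, numpy 2.4.6, scipy 1.17.1, pandas 2.3.3 and matplotlib 3.10.9 were used, and coordinates came from the GENCODE annotation of GRCm38.

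The members and gene lists were chosen with earlier results of these data known. Genes were named if they were markers, among the 5 with the smallest p in each direction, among the 3 with the most UMIs of a list or the 10 with the most of all, among the 5 with the smallest interaction p, or one of 13 genes set by role (Cd80, Cd86, Fcgr1, Fcgr2b, Fcgr3, Fcgr4, Spp1, Trem2, C1qa, Siglecf, Mki67, Cdkn1a and Cdkn2a); Ctla4 and the genes said to be named after their values were seen are exceptions. Libraries held 37666042 to 48612412 UMIs, and sums of alveolar macrophages 5992613 to 16213183. UMI counts carry counting error, which is large for genes of few UMIs.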

Additional observations from a re-analysis of the deposited data

How the results depend on the processing

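No gene was called between the treatments under 21 of the 23 alternatives. DESeq2 called 18 genes and the fit without a filter on low counts 19, and leaving out each mouse in turn called 0 throughout. The cause was not tested. For the interaction, 7 genes were called without cells that carried other cells' RNA and 28 without the filter on low counts, and leaving out each mouse gave 0 to 9. Leaving out a mouse moved the treatment difference between -2.39 and 3.21 points for the share of alveolar macrophages, -315 and 2023 for median UMIs, -0.304 and 0.0961 points for cells with C1qa, -2.06 and 1.53 for Siglecf, 0.288 and 6.47 for Spp1 and 1.89 and 3.30 for cell division. Same-numbered mice of the 2 groups did not deviate together more than others (r = 0.151, -0.0318 and -0.167, against -0.263 to 0.260 for differently numbered mice). These values gave no sign of pairing, but they cannot show whether the mice were handled in pairs. With a replicate block 0 genes were called, 480 at an unadjusted p under 0.05. Of 19 genes followed over 418 values, 396 kept direction and side of the threshold, 9 passed it (Timp3, Col1a2, Scgb1a1, Ecscr and Mgp, without the filter and, save Ecscr, with DESeq2) and 13 changed sign, in 6 genes that were not called. The fold change of Scgb1a1 was 7.32 with 1 Chil3 UMI enough and 5.44 with Plet1 or Atp6v0d2 enough. With Cd79a and Cd3e barcodes kept, that of Timp3 was 1.38 and that of Ecscr 1.74. Spp1 changed sign with a mitochondrial limit of 5% (-0.067), with equal numbers of cells per mouse (-0.16) and with the replicate block (-0.075), and ranged from -0.33 without ipilimumab replicate 3 to 0.35 without ipilimumab replicate 1. After thinning to 2000 UMIs, Cd80 was -0.12 and Fcgr4 0.18. Without each mouse in turn, Cd80 ranged from -0.14 to 0.23, Trem2 from -0.23 to 0.43, Siglecf from -0.33 to 0.12 and Krt79 from -0.56 to 0.082. Leaving out cells under 5000 UMIs, of very high Chil3 or with stromal UMIs was chosen after the data were seen. Genes of a few UMIs per mouse, such as Col1a2, rest on too little depth for a level in IgG1 mice.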

Other observations

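Alveolar macrophages under 5000 UMIs were most frequent in ipilimumab replicate 1. In that mouse, 54 such cells had a median of 2185.5 UMIs and held Mrc1 at 908 CPM, Ear2 at 778 CPM and Krt79 at 191 CPM, where the 242 deeper cells had 1179, 862 and 266 CPM. The other mice had 4 to 21 such cells each, whose 12048 to 53041 UMIs held 0 to 12 of Krt79 and 0 to 4 of Siglecf, too few to compare levels. Igkc, an antibody light chain gene, was at 336 CPM in the shallow cells of ipilimumab replicate 1 and at 19.96 CPM in the deeper ones. In ipilimumab replicate 3, 16 shallow cells held Igkc at 8495 CPM, against 21.5 CPM in the 521 deeper cells.

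Genes of the alveolar macrophage were present in the free RNA. In barcodes of at most 100 UMIs, Plet1 was at 221 to 511 CPM and Ear2 at 365 to 632 CPM over the 6 libraries, against 1.504 to 4.70 CPM and 2.74 to 6.89 CPM in B cells.

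Among cells of at least 5000 UMIs, Cd74, the chaperone of MHC class II, was uneven within every mouse. The median per cell was 103 to 348 CPM and the 90th percentile 2177 to 3382 CPM, and 14.9% to 30.7% of the cells had no Cd74 UMI.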
